A study of Mus musculus with 2 samples.

Results

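The nuclear genes of respiratory complexes III and IV were described in total RNA from aged mouse heart. The set holds every gene whose symbol in the second transcript table starts with Uqc, or with Cox and a digit, and that has at least 1 protein-coding transcript. This rule uses names and annotation only, and it found 38 of 55536 annotated genes, or of 22015 nuclear protein-coding genes. They are 8 subunits and 3 assembly factors of complex III, 17 subunits and 9 assembly factors of complex IV, and Cox7a2l, a factor that joins the complexes. A further 4 symbols with these prefixes have no protein-coding transcript and were left out: Cox6c2, Cox20b, Uqcrh-ps1 and Uqcrh-ps2, processed pseudogenes of which Cox6c2 had the most counts, 17.8 and 14.9 in the libraries.

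Both libraries belong to a single group, heart tissue of male B6CASTF1/J mice aged 18 to 20 months, the first-generation offspring of a C57BL/6J and CAST/EiJ cross. Each was made from 300 ng of total RNA, with ERCC spike-ins added, by a stranded protocol that reduces ribosomal RNA. The labels call them biological replicates 1 and 2, with separate biosample identifiers but the same donor identifier, so that the difference between them may be technical. The series has no second age, strain or treatment, and the 2 libraries are the whole spread behind each value below.

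Complex III, ubiquinol-cytochrome c oxidoreductase, passes electrons from ubiquinol to cytochrome c and moves protons across the inner mitochondrial membrane. Complex IV, cytochrome c oxidase, takes those electrons from cytochrome c and hands them to oxygen, which becomes water. The mitochondrial chromosome encodes cytochrome b of complex III and the catalytic core of complex IV, and the nucleus encodes all other subunits and the factors that insert haem and copper. Several complex IV subunits come as paralogs: Cox6a2, Cox7a1 and Cox8b are the heart and muscle forms, Cox6a1, Cox7a2 and Cox8a the broadly expressed forms, Cox4i2 a form known from lung, and Cox6b2, Cox7b2 and Cox8c are known from testis.

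For each library the deposit holds a gene table, a transcript table from the same quantification, called the first here, and the second transcript table, which was made from the reads and an index of the annotated transcripts. Levels are from the gene tables unless another is named. The gene tables held 39053830 and 37447840 expected counts in replicates 1 and 2, of which 320572 and 269026 fell on the 38 genes, 0.825% and 0.722% of the annotated counts. The mitochondrial chromosome took 29.3% and 34.4% of the annotated counts. All 8 cardiac muscle markers examined were above 1 TPM, a length-corrected share of all transcripts, in both libraries. Of the skeletal muscle markers 0 of 7, of the lung epithelium markers 0 of 3 and of the testis markers 0 of 4 reached 1 TPM in both. Of the brown fat markers 2 of 4 did, Cidea at 16.5 and 17.3 TPM and Ppargc1a at 40.1 and 25.7. The other brown fat markers were Ucp1 at 0.46 and 0.42 TPM and Dio2 at 0.22 and 0.3. The summed level of 4 white fat markers was 28.4 TPM in replicate 1 and 4.3 in replicate 2, that of 5 atrial markers 1371 and 814, and that of 4 haemoglobin genes 10834 and 7016. The 5 smooth muscle and pericyte markers summed to 181 and 166 TPM. In bulk heart, fewer cells of a type and less RNA per cell cannot be told apart.

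Of the 38 genes, 35 had at least 1 TPM in both libraries. Only Cox6b2, Cox7b2 and Cox8c lay below, the paralogs known from testis. Cox6b2 had 8 and 10 counts (0.57 and 0.72 TPM), Cox7b2 had 1 count in each library (0.07 TPM in both) and Cox8c had 0 in both. Levels overlapped between the roles. Complex III subunits lay between 429.7 and 969 TPM (means of the libraries), the detected complex IV subunits between 6.32 and 1739.9, and the assembly factors of both complexes between 4.85 and 142. Of all TPM on nuclear protein-coding genes, complex III subunits made up 1.39% ± 0.0323 (SD, n = 2), complex IV subunits 2.93% ± 0.0238, and the 12 assembly factors 0.177% ± 0.00104. TPM corrects for transcript length. Counted as reads, the same groups made up 0.529%, 0.679% and 0.0672% of nuclear protein-coding counts. The median transcript length was 632 bases for the detected members and 2407 for nuclear protein-coding genes of at least 1 TPM.

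**Figure D1:**
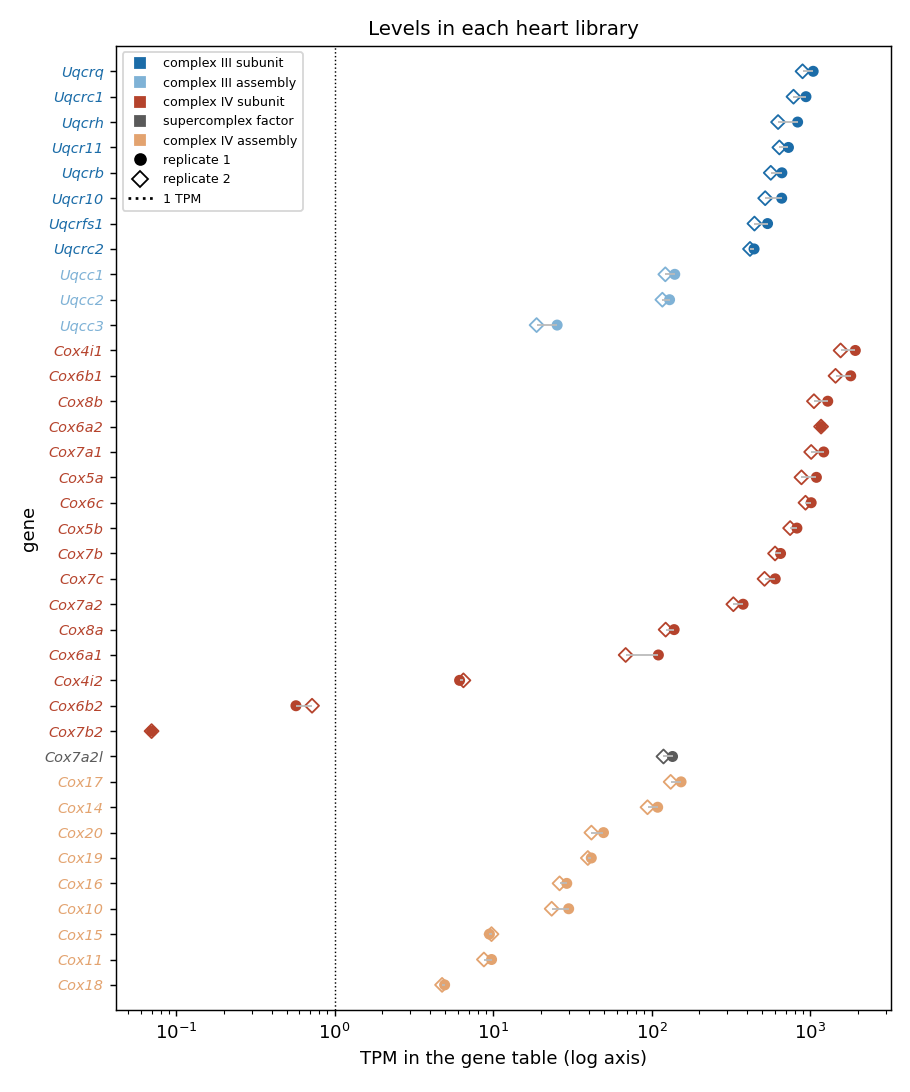
TPM of 37 genes in each library (x axis, log scale; filled circles replicate 1, open diamonds replicate 2, joined by a line), coloured by role; Cox8c, at 0 in both, is not drawn. All 8 complex III subunits lie between 417 and 1044 TPM, while complex IV subunits span from the paralogs under 1 TPM to Cox4i1 at 1925.

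Among complex III subunits, Uqcrq, a small subunit that sits beside cytochrome b, was highest at 1044 TPM in replicate 1 and 895 in replicate 2. Uqcrc1, a core protein of the matrix side, followed at 939.9 and 784. Uqcrh, the acidic hinge protein near cytochrome c1, had 833 and 627, and Uqcr11, another small membrane subunit, 729 and 639. Uqcrh and Uqcr11 changed places between the libraries, and the other 6 kept their ranks. Uqcrb, a ubiquinone-binding protein, had 662 and 564 TPM, and Uqcr10, a small subunit, 661 and 519.9. Uqcrfs1, the Rieske iron-sulfur protein that carries electrons to cytochrome c1, stood lower at 538 and 445. Uqcrc2, the partner of Uqcrc1 in the core, was lowest at 442 and 417. The highest of the 8 exceeded the lowest by 2.26 times in the means of the libraries. Every one of the 8 values was higher in replicate 1. So was the summed TPM of nuclear protein-coding genes of at least 1 TPM, 413134 against 356861.5 in replicate 2. The 8 subunits made up 1.41% and 1.37% of the TPM on nuclear protein-coding genes.

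Among complex IV subunits, Cox4i1, the largest nuclear subunit, at chr8:120668222-120674207 (+ strand), led with 1925 and 1555 TPM and ranked 19 among nuclear protein-coding genes by mean TPM. Cox6b1, which faces the intermembrane space, had 1801 and 1444. The muscle forms came next. Cox8b had 1289.7 and 1056 TPM, Cox6a2 1174 and 1171, and Cox7a1 1216 and 1014. Cox5a, a matrix-side subunit, had 1094 and 881. Of the other subunits, Cox6c stood at 1014 and 934 TPM, Cox5b at 824 and 747, Cox7b at 649.9 and 599.9 and Cox7c at 602 and 515. All of these were higher in replicate 1, Cox6a2 by the smallest margin (1172 ± 2.11 TPM, SD, n = 2). The summed TPM of nuclear protein-coding genes was higher there too, as given above. Adding paralogs gives 10 nuclear positions in the enzyme, and their summed levels differed by 3.13 times from the highest, Cox4 (1746 ± 262), to the lowest, Cox7c (558 ± 61.3). Both libraries put Cox4, Cox6b and Cox7a at ranks 1, 2 and 3 and Cox5b, Cox7b and Cox7c at ranks 8, 9 and 10. In between, Cox8 and Cox6a changed places, as did Cox5a and Cox6c.

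The muscle forms made up most of the RNA of their pairs. The Cox6a pair lies at chr7:128205435-128206387 (Cox6a2, - strand) and chr5:115345642-115348981 (Cox6a1, - strand) of mm10. Cox6a2 was 91.4% of the summed TPM of Cox6a2 and Cox6a1 in replicate 1 and 94.5% in replicate 2 (92.9% ± 2.16, SD, n = 2). Cox6a1 itself had 110.2 TPM in replicate 1 and 68.5 in replicate 2. As shares of the counts of the pair, the exact Clopper-Pearson 95% intervals were 92.6% to 93.2% and 95.2% to 95.7%, and they do not overlap. These intervals cover counting error only. Cox8b was 90.3% and 89.6% of its pair with Cox8a, which had 139 and 122 TPM. Cox7a1 was 76.3% and 75.6% of its pair with Cox7a2, which had 377 and 327 TPM. Of the 3 pairs, the Cox7a pair thus held the most of the broadly expressed form. The share depends on the unit. Read as counts, the muscle forms held 94.2%, 83.8% and 64.1% of the Cox6a, Cox8 and Cox7a pairs, and as TPM of the second transcript table they held 90.5%, 92.2% and 69.3%. The order of Cox6a and Cox8 differed between these readings, while Cox7a was lowest in all 3.

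**Figure D2:**
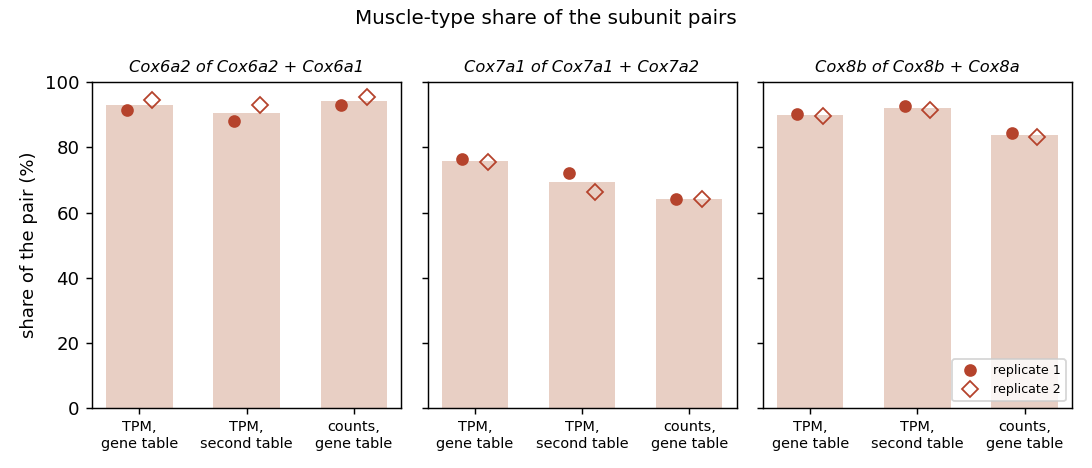
Share of the muscle-type gene in its pair (y axis, percent) as TPM in the gene table, TPM in the second table and counts in the gene table; bars are means of the 2 libraries and points the libraries. Cox7a1 is lowest of the 3 in every reading, and Cox6a2 is the pair in which replicate 2 lies above replicate 1 in all 3.

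The other paralogs were scarce. Cox4i2 had 6.14 and 6.49 TPM against 1925 and 1555 of Cox4i1, which made it 0.318% and 0.416% of the pair. Cox6b2 was 0.0316% and 0.0498% of its pair with Cox6b1, from 8 and 10 counts. Cox7b2 was 0.0108% and 0.0117% of its pair with Cox7b, from 1 count in each library. Cox8c, at 0 of 1928 and 0 of 1693 counts of the pair with Cox8a, could make up as much as 0.156% and 0.177% of that pair, the share that 3 counts would give. At 1 to 10 counts a library, these values do not resolve a difference between the libraries.

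Promoter windows of RefSeq (GRCm38.p6, 250 bases before to 50 after the annotated start) were at hand for both genes of the Cox7a and Cox8 pairs, and they are shown because the forms differ in CpG content. The windows are chr7:30183921-30184220 (+ strand) for Cox7a1, chr9:79759804-79760103 (- strand) for Cox7a2, chr7:140900397-140900696 (- strand) for Cox8b and chr19:7217567-7217866 (- strand) for Cox8a. Each is written 5′ to 3′ on the gene's strand, with capitals marking CpG dinucleotides.
Cox7a1: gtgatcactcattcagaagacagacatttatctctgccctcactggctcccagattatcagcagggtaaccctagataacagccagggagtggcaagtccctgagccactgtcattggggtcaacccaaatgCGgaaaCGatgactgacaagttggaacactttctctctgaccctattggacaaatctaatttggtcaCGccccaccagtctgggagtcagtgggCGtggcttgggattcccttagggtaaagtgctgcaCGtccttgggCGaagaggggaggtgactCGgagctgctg
Cox7a2: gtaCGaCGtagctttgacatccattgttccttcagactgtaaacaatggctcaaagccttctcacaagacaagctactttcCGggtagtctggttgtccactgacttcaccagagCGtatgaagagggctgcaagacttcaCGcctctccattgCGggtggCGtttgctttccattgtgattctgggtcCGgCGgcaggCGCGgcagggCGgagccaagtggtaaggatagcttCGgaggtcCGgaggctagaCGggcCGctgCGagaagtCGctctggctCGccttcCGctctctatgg
Cox8b: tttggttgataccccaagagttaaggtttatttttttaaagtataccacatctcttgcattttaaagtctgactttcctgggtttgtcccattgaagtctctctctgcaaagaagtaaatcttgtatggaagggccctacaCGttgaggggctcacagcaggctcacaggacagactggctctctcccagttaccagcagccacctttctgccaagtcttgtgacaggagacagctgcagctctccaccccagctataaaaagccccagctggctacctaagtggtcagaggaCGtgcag
Cox8a: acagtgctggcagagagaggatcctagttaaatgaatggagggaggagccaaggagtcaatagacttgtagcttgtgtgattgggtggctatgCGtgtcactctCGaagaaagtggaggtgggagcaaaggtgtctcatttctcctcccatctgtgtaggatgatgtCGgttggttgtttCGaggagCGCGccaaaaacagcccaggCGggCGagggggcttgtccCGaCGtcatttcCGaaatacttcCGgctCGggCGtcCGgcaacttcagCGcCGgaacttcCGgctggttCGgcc
The muscle form Cox7a1 holds 7 CpG and Cox7a2 holds 20. Cox8b holds 2, the fewest of the set, and Cox8a holds 19. Over the 29 windows of the 28 members that have one, the median was 17, against 13 over windows of protein-coding genes. Of windows of protein-coding genes that averaged 100 TPM or more here, 5.64% had 2 CpG or fewer, 21.4% had 7 or fewer, and 52.2% had 19 or fewer. Cox7b, with 5, and the assembly factor Uqcc1, with 7, were also CpG-poor. The windows of Cox6a2 and Cox4i1 were not analysed here.

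Cox7a2l, also called SCAF1, belongs to the Cox7a family but joins complex III to complex IV rather than sitting in the plain enzyme. The gene lies at chr17:83501918-83517330 (- strand) and had 135 and 119 TPM. Within the family of 3, Cox7a1 took 70.4% and 69.5% of the TPM, Cox7a2 21.8% and 22.4%, and Cox7a2l 7.83% and 8.13%. In the gene table these shares differed by less than 1 percentage point between the libraries. In the second table they were less even: Cox7a1 was 72.2% of its pair with Cox7a2 in replicate 1 and 66.3% in replicate 2.

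By median, the 12 assembly factors lay well below the 25 subunits of both complexes, which had 625 TPM. The ranges overlapped, and Cox17, Uqcc1 and Uqcc2 stood above the subunit Cox6a1 in both libraries. Cox17, the copper chaperone that supplies the other copper carriers, was highest of the 12 with 153 and 132 TPM. The complex III factors Uqcc1 and Uqcc2, which act on newly made cytochrome b, had 139.8 and 122 TPM and 129.6 and 117 TPM. Cox14, which attends newly made Co1, had 109 and 94.1. Cox20, which attends Co2, had 49.6 and 41.65 TPM, and Cox19, a copper-binding protein of the intermembrane space, 41.6 and 39.55. Below them lay Cox10 at 29.9 and 23.4 TPM and Cox15 at 9.47 and 9.76, the enzymes that make haem a, with Cox16 at 29.1 and 26.2 and the complex III factor Uqcc3 at 25.3 and 18.8. Cox11, which delivers copper to Co1, had 9.77 and 8.74, and Cox18, which inserts Co2 into the membrane, 4.94 and 4.76. The median of the 12 was 34.1 TPM. In the test between the libraries described below, 10 of them were not called, and neither were 8944 of all 12189 genes tested.

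The difference between the libraries was tested gene by gene by a two-sided exact binomial test of counts scaled by TMM (the trimmed mean of log ratios), and p-values were adjusted by the Benjamini-Hochberg method over 12189 genes that averaged 1 TPM or more. It compares 2 libraries and not conditions, and it counts sampling error only. Of the 35 members tested, 18 were lower in replicate 2 and 1 was higher. Of all genes tested, 15.9% were called lower and 10.7% higher. Abundant genes pass such a test more easily, and of the 555 nuclear protein-coding genes that averaged 100 TPM or more, 53.5% were called lower and 20.7% higher. Of the 25 members that abundant, 15 were called lower and 1 higher. None of the 35 differed by 1.5-fold or more in TMM-scaled counts, against 5.05% of all genes tested and 1.62% of the abundant ones. Cox6a1 passed that line with total-count scaling and in the second table. The median log2 ratio of replicate 2 over replicate 1 was −0.09 over the members, −0.02 over all genes tested, −0.07 over the abundant ones and −0.12 over nuclear protein-coding genes of 350 to 800 bases. With spike-in scaling the members' median was 0.01, with 10 called lower and 5 higher, so the side on which the members lie depends on the scaling. The share of all genes called with that scaling was not counted.

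By role, complex III subunits had a median log2 ratio of −0.13 and 7 of 8 were called lower. Complex IV subunits had a median of −0.11, with 9 of 14 called lower and 1 higher, and the assembly factors −0.05, with 2 of 12 called lower. Under spike-in scaling these medians were −0.03, −0.02 and 0.04. With TMM, 15.9% of all genes tested and 53.5% of the abundant ones were called lower. Of 598 nuclear protein-coding genes of 350 to 800 bases, 190 were called lower and 27 higher. The subunits are mostly more abundant than the assembly factors, so the counts called do not compare the roles. Cox6a1 had the lowest ratio of the tested members. Its TPM was 110.2 in replicate 1 and 68.5 in replicate 2. In TMM-scaled counts, which TPM does not follow, its log2 ratio was −0.56 (95% interval −0.68 to −0.44, exact binomial test, adjusted p = 8.12e-21). On the same count scale Uqcc3 followed at −0.30 (at 25.3 and 18.8 TPM), then Uqcrh at −0.29 and Cox6b1 at −0.27. Cox6a2, the muscle paralog of Cox6a1, was the member called higher, with a log2 ratio of 0.12 (interval 0.10 to 0.15; exact binomial test, adjusted p = 4.34e-17) on the count scale, at nearly equal TPM. In the other pairs, Cox7a1 had −0.13 and Cox7a2 −0.13, Cox8b −0.16 and Cox8a −0.05, and Cox4i2 0.20 and Cox4i1 −0.21. Cox6b2, too scarce to be tested, had 0.37 from 8 and 10 counts, where Cox6b1 had −0.27. Whether the pairs differ from each other in this was not tested. Summed white fat, atrial and haemoglobin markers were lower in replicate 2 as well, by the values given above, and their part in the Cox6a1 difference was not tested.

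**Figure D3:**
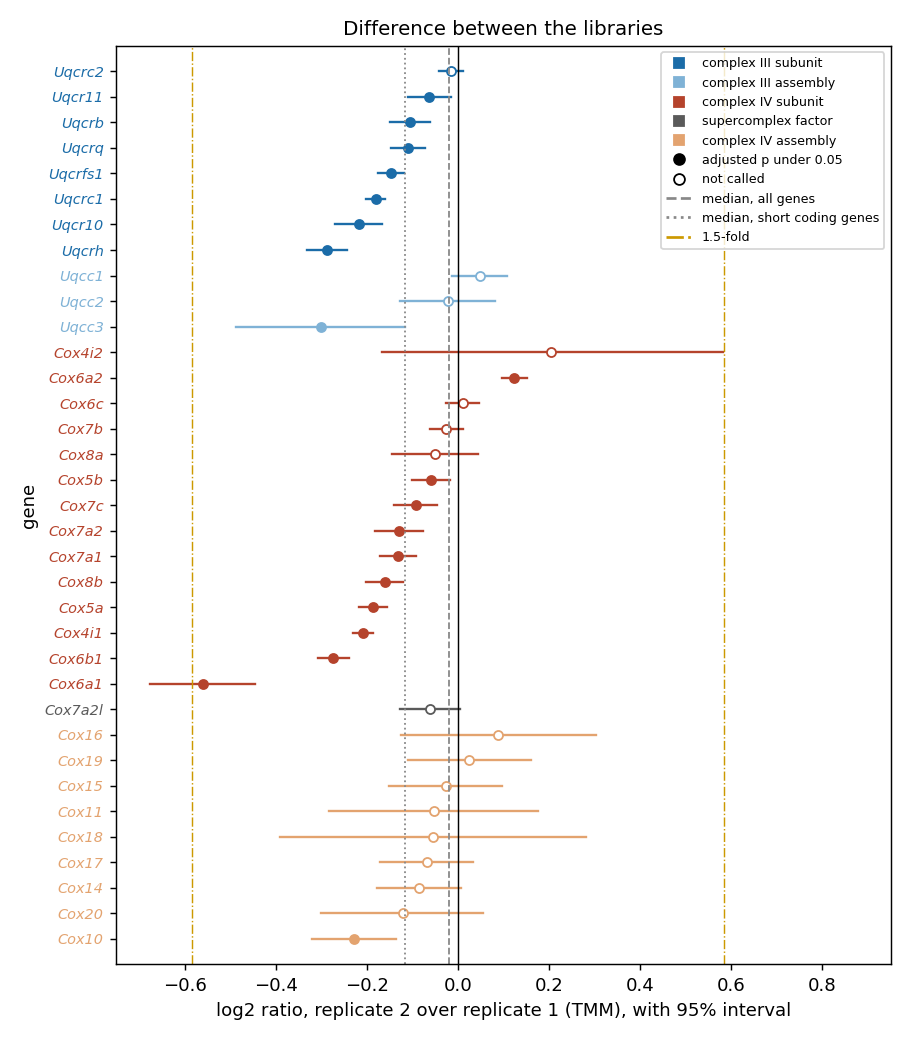
Log2 ratio of replicate 2 over replicate 1 for the 35 tested genes (x axis, TMM-scaled counts, bars are 95% intervals of counting error), coloured by role and filled where the adjusted p was under 0.05. Most points lie between −0.30 and 0.12, with Cox6a1 at −0.56; vertical lines mark 0, the medians of all genes and of short coding genes, and 1.5-fold.

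The levels depend on which deposited table is read. TPM summed per gene from the second table was higher than the gene table's for 30 of the 35 members in the mean of the libraries. The median ratio of the second table to the gene table was 1.29 in replicate 1 and 1.28 in replicate 2, against 1.12 in each for all nuclear protein-coding genes of at least 1 TPM. Of the 35 members, 22.9% had a ratio of 1.5 or more, against 9.1% of those genes, 17.7% of the abundant ones and 23.7% of those of 350 to 800 bases. The members are short: their median length was 632 bases and 24 of 35 lay under 800. Within the members, ratio and length had a Spearman rho of −0.14 (n = 35 genes, which share both libraries). For 26 of 35 the second table gave no more counts than the gene table in either library, with Cox18 equal at 161 and 141. For 32 it used a shorter effective length, the number of start positions a read can have. The median effective length was 0.616 times that of the gene table in each library.

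Cox8b shows both at once. Its counts were 10387 and 8447 in the gene table and 6557 and 5390 in the second table. Its effective length was 261 bases in the gene table and 87 and 85.3 in the second table, and its TPM was 2233 and 1955 there. The ratios were largest for Cox7c, at 2.36 and 2.35 in the libraries, Cox7b, at 2.09 and 1.92, and Cox7a2, at 1.80 and 2.13. They were smallest for Cox6b1, at 0.70 and 0.58, Cox16, at 0.94 and 0.88, and Cox6a2, at 0.90 and 0.98. By the means of the libraries, the order of the complex IV positions was another in the second table. Cox8, Cox7a and Cox4 held ranks 1, 2 and 3, although in replicate 1 alone they came in the reverse order (2406, 2437 and 2452 TPM). Cox6b moved from rank 2 to rank 9, and Cox7c moved from rank 10 to rank 5. The spread over the 10 positions narrowed from 3.13 to 2.19 times. For complex III it was 2.26 and 2.33 times, with Uqcrq, Uqcrc1, Uqcrh and Uqcr11 at ranks 1 to 4 by the means in both tables.

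**Figure D4:**
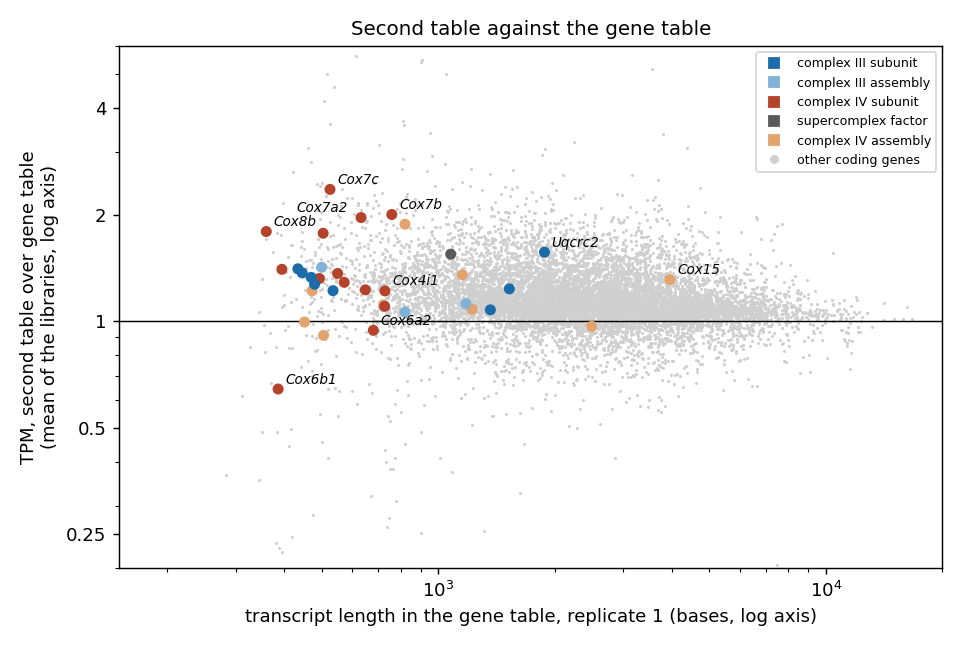
TPM in the second table over TPM in the gene table (y axis, log scale, mean of the libraries) against transcript length (x axis, log scale) for the 35 members, coloured by role, and 10796 other nuclear protein-coding genes in grey; 51 others lie outside the axes or at 0. Members sit among the short genes, mostly above 1, from Cox6b1 at 0.64 to Cox7c at 2.36.

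A single transcript carried over 90% of the TPM in 22 of the 35 members and over 50% in 32. Among the 30 with several transcripts, the tables named the same leading transcript in 20, or 66.7%, against 67.5% of abundant protein-coding genes and 77.0% of those of at least 1 TPM. In the first transcript table a protein-coding transcript of 745 bases held 91.6% ± 2.82 (SD, n = 2) of Cox4i1, and the second gave that transcript 0 and another protein-coding one, of 765 bases, 90.9%. The protein-coding transcript of Uqcr11 of 445 bases had 99.6% ± 0.0511 in the first and 0 in the second, where a processed transcript of 520 bases had 86.0%. The protein-coding transcript of Cox6a1, of 571 bases, had 98.7% ± 0.885 in the first and 9.9% in the second, where a retained-intron transcript of 620 bases had 90.1%. The leading transcript was not annotated as protein-coding in 5 of the 30 in the first table and in 7 in the second (16.7% and 23.3%, against 10.8% and 14.0% of abundant genes). By mean TPM, Cox7b was led in both tables by Cox7b-203, a retained-intron model of 526 bases, with 51.4% ± 3.48 and 99.9%. In the first table that lead is not resolved: the protein-coding transcript of 1001 bases had 49.9% of Cox7b in replicate 1 and 45.7% in replicate 2, where Cox7b-203 had 49.0% and 53.9%, and by counts the protein-coding one led. Cox19 was led in both by the processed transcript Cox19-206, with 59.4% ± 2.84 and 45.8%. Uqcrh was also led by non-coding models in both, but by different ones. In the first table it was Uqcrh-205, a retained-intron model, with 60.9% ± 0.141, and in the second the processed transcript Uqcrh-204, with 71.5%. All its models not annotated as protein-coding held 62.7% and 84.0% of its TPM. 

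Cox7c, a small membrane subunit, has processed copies elsewhere in the genome, and the gene table puts counts on them. The whole of the annotated pseudogene Gm12338, at chr11:75599763-75599954 (- strand, mm10), 192 bases long, is identical to the coding sequence of Cox7c-203, with 0 differences. The sequence, taken from the GENCODE M21 transcripts and printed 5′ to 3′, with no base set in capitals, is therefore the same for gene and copy.
Cox7c: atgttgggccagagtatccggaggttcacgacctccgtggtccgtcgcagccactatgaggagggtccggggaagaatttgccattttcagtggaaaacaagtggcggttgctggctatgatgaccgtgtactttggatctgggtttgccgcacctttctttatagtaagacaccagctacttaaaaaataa
In the gene table Cox7c, at chr13:86044816-86046904 (- strand), had 7920 and 6754 counts and Gm12338 4508 and 3427. A second copy, Gm10012, which shares 23.4% of the 100-base stretches of Cox7c, had 797 and 715. Of the counts on the 3 genes, 59.9% and 62.0% stood on Cox7c. Gm12338 has an effective length of 93 bases in that table, against 427 and 428 for Cox7c, which turned its counts into 1571 and 1202 TPM, above the 602 and 515 of Cox7c. In the second table Gm12338 had 0 counts in both libraries, Gm10012 1.1 and 0, and Cox7c 11115 and 8565. Reads inside the identical stretch cannot be told apart between gene and copy.

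Some other members also share sequence. For each gene only the protein-coding transcript with the largest share of its TPM in the first transcript table was searched. The leading non-coding transcripts of Uqcrh, Uqcc1, Cox5b, Cox7b and Cox19 were thus not searched. Of the 38 searched transcripts, 30 have no 100-base stretch in common with a transcript of another gene, and 6 share more than 10% of theirs. Cox17, with 45.8%, shares them with Gm21987, an overlapping model on the same chromosome that had only 6.44 and 1.67 counts. Cox7a2l shares 11.7% with Gm6969, a processed pseudogene with 805 and 662 counts in the gene table and 177 and 147 in the second. Cox5b shares 8.09% with Gm11273, which had 802 and 734 counts in the gene table and 119 and 0 in the second. Cox16 shares 11.4% with Gm20498 on the same chromosome, with 332 and 246 counts. Uqcrb, Cox6c and Cox6a1 share with copies of at most 17.8 counts in either library of the gene table. The muscle forms Cox6a2, Cox7a1 and Cox8b share none.

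Promoter windows were searched for the cores of factors known to act on respiratory chain genes. The motifs, on both strands, were the NRF-1 core GCGCANGCG, the GABP core CCGGAAG, the YY1 core AANATGGCG and the ERR half-site written TNAAGGTCA. The GABP core was found in 10 of 28 members (35.7%), against 12.9% of protein-coding genes and 17.4% of genes that averaged 100 TPM or more. The 10 were Uqcrh, Uqcr11, Cox6a1, Cox6b1, Cox8a, Cox10, Cox14, Cox15, Cox16 and Cox20. The NRF-1 core was found in Uqcrc1, Uqcr11, Uqcc2 and Cox6a1 (14.3%), against 9.63% and 17.0%. The YY1 core was found in Cox10 (3.57%, against 3.64% and 8.82%), and the ERR letters in 0 of 28 (against 1.19% and 1.58%). A match is a run of letters and not a bound site, and no binding was measured here.

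Only Uqcr11 and Cox6a1 held both the NRF-1 and the GABP core, and their windows are shown for that reason, at chr10:80406772-80407071 (- strand) and chr5:115348909-115349208 (- strand) of GRCm38.p6, 5′ to 3′ with the matches in capitals. The longer run in Cox6a1 holds overlapping NRF-1 matches on opposite strands.
Uqcr11: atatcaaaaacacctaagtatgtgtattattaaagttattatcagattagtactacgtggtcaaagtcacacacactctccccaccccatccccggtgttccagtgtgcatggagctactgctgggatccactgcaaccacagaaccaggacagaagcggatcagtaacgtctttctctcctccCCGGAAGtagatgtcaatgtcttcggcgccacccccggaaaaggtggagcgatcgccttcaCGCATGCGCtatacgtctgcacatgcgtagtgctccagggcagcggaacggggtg
Cox6a1: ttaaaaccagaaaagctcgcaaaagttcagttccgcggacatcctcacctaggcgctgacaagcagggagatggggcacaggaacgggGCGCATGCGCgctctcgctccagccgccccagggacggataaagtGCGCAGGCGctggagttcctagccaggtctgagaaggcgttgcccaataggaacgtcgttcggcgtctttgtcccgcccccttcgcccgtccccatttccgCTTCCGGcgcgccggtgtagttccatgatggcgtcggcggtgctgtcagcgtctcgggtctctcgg
Among the paralog pairs with both windows, Cox8a held 2 GABP cores and Cox6b1 held 1, and Cox8b, Cox6b2, Cox7a1, Cox7a2, Cox7b and Cox7b2 held none of the 4 motifs. As for position, 5 of the 38 genes (13.2%) start within 1000 bases of a neighbour transcribed the other way, against 6.77% of protein-coding genes and 10.5% of those of at least 1 TPM. The neighbours were Gdf9 for Uqcrq, Lrrc41 for Uqcrh, Zmat5 for Uqcr10, Gm27021 for Cox4i1 and Stxbp4 for Cox11, at 89 to 336 bases. Each had under 11 TPM in both libraries, while Uqcrq, with 1044 and 895 TPM, faces Gdf9 at 0.21 and 0.17. Chromosome 7 carries 6 of the 38, among them Cox6a2, Cox7a1 and Cox8b, all 3 of the muscle forms.

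Genes that work with these complexes but carry other names were read from a list of 32. Of its 28 nuclear symbols, 27, all but Coa8, were found in the tables and 26 reached 1 TPM in both libraries. Between the libraries 8 of those 26 were called lower and 0 higher in the same exact test (median log2 ratio −0.09). Of all genes tested, 15.9% were called lower and 10.7% higher (median −0.02), and of the abundant ones 53.5% and 20.7% (median −0.07). Cyc1, which is cytochrome c1 of complex III, had 498 and 384 TPM. Ndufa4, first assigned to complex I and known as a complex IV subunit, had 1316 and 1130, near Cox8b. Cycs, cytochrome c itself, was listed at 63.2 and 59.2 TPM in the gene table and 747 and 658 in the second. It shares 44.9% of its 100-base stretches with Gm10053, which had 11335 and 10033 counts against 5558 and 5268 on Cycs. Of the rest, Higd1a, a small protein that binds complex IV, was highest with 86.2 and 72.5 TPM, and Cyct, the testis cytochrome c, lowest with 0.7 and 0.35.

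The mitochondrial partners were higher in replicate 2. The cytochrome b gene mt-Cytb had 15721 and 21548 TPM, mt-Co1 35808 and 42699, and mt-Co3 21772 and 27856. Their log2 ratios were 0.58, 0.38 and 0.48, where the 35 tested nuclear members ranged from −0.56 to 0.20. All 4 mitochondrial genes were called higher, mt-Co2 included at 0.23. Of all genes tested 10.7% were called higher, and of the abundant nuclear protein-coding ones 20.7%. The level of mt-Co2, 475 and 509 TPM, and its ratio are not those of the transcript alone. Of its 100-base stretches, 99.5% occur in Gm28661, a nuclear copy on chromosome 1, which was given 32943 and 40244 TPM. For mt-Co3 the share is 99.9% with Gm28437 on the same chromosome, given 10110 and 12232 TPM, and for mt-Co1 30.8%. Only mt-Cytb shares none, and the ratios of the other mitochondrial genes may depend on how reads were divided with the copies. For this reason no ratio of mitochondrial to nuclear RNA of a complex is given.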

How the data were processed

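RNA from 2 heart libraries was read from 3 deposited tables each. The gene table and the transcript table that goes with it, called the first here, hold the authors' expected counts and TPM, quantified from transcriptome alignments on mm10 with GENCODE M21, per the file list deposited with them. The second transcript table holds the authors' estimated counts and TPM from the reads and an index of the same annotation; its transcripts were summed per gene. Effective lengths, in bases, were taken as deposited. The quantifiers are not given in the sources used here. Expected counts were rounded for the tests and scaled by TMM (edgeR 4.0.16 in R 4.3.3; DESeq2 1.42.0 size factors as an alternative). With 1 group and 2 libraries, edgeR's quasi-likelihood test has no contrast, so an exact conditional binomial test was used (SciPy 1.17.1; Benjamini-Hochberg, threshold 0.05, mean of at least 1 TPM). Log2 ratios use a prior count of 2. The script was tested on simulated data. Total counts were 39053830 and 37447840, and intervals cover counting error only. The members and lists were chosen with earlier results of these data known. Values in both libraries are given for paralog pairs, for the 6 highest genes of each role, for the 3 largest and 3 smallest table ratios and for genes under 1 TPM. Marker lists covered cardiac, atrial, skeletal and smooth muscle, white and brown fat, lung epithelium, testis and erythroid cells. Promoters are RefSeq windows of GRCm38.p6, matched by symbol for 28 of the 38 genes.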

Additional observations from a re-analysis of the deposited data

How the results depend on the processing

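The 35 genes at 1 TPM or more were 35 in the second table, 34 at a threshold of 5 TPM and 36 with TPM rescaled over nuclear protein-coding genes, and 35 with either replicate left out. Complex III subunits, complex IV subunits and assembly factors made up 1.43%, 3.18% and 0.167% of nuclear protein-coding TPM in the second table, and 0.529%, 0.679% and 0.0672% of counts. The share of Cox6a2 was 90.5%, of Cox7a1 69.3%, of Cox8b 92.2%, of Cox6b2 0.0889% and of Cox7b2 0% in the second table. In counts, Cox7a1 had 64.1%, Cox8b 83.8%, Cox6b2 0.0666% and Cox7b2 0.00801%. Spike-in scaling gave 10 members lower and 5 higher, total-count scaling 25 lower, and 1 member, Cox6a1, passed 1.5-fold with total-count scaling and in the second table. Spike-in and total-count scaling shift all genes alike. The share of all genes called under them was not counted, so these counts are not results about the members alone. Of the 35 log2 ratios, 13 turned sign with spike-in scaling, 3 with total-count scaling, 1 with DESeq2 size factors and 5 in the second table. Those called under either setting were, with spike-in scaling, Uqcrc2 (0.0801), Uqcr11 (0.0318), Cox5b (0.0354), Cox7b (0.0692) and Cox7c (0.0018), with total-count scaling Cox6c (−0.0663) and in the second table Uqcr11 (0.0225). Apart from those, spike-in scaling lost 5 calls and added 2, total-count scaling added 6, the second table lost 3 and added 4, and no filter on TPM lost 2 (Uqcr11 and Cox5b). DESeq2 size factors, TMM on nuclear genes, a prior count of 0.5 and a filter of 5 TPM changed no call. With stretches of 50 bases, 15 of the searched transcripts in place of 8 share sequence with another gene. The causes of the other shifts were not tested. Leaving out a replicate leaves the levels and shares at the other library's value and the ratio undefined. No paired analysis was possible because there is only 1 group. Depth limits Cox6b2, Cox7b2 and Cox8c, which rest on 10 counts or fewer in each library.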
